A study of Mus musculus with 10 samples.

Results

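The genes described here are the 10 MHC class II presentation genes *H2-Aa*, *H2-Ab1*, *H2-Eb1*, *H2-DMa*, *H2-DMb1*, *H2-DMb2*, *H2-Oa*, *Cd74*, *Ciita* and *Ctss*, chosen by name from 45706 genes in the count table. Of these, 9 passed the filter on low counts, which 14550 genes in all passed, and *H2-Oa* did not. RNA was measured in 10 whole melanomas of C57BL/6 mice 8 weeks old, taken 4 days after *Braf*-mutant melanoma cells were placed under the skin. The cells either made prostaglandins through both cyclooxygenases (*Ptgs*+/+, 4 tumors) or had been made deficient in *Ptgs1* and *Ptgs2* by genome editing (*Ptgs*-/-, 3 tumors), and the mice of these groups were untreated. A further 3 *Ptgs*-/- tumors grew in mice depleted of natural killer (NK) cells, to which, per the labels, anti-NK1.1 (200 µg) and anti-asialo-GM1 (30 µg) were given on day 0 and again on day 2. *Ptgs*+/+ tumors in NK cell-depleted mice were not analysed here, and asialo-GM1 is also carried by some other leukocytes. The labels place the deficiency in the implanted cells, not in the hosts. Replicates are separate libraries in the labels, which do not say from how many animals or implantations they came, so that the p-values measure the spread between these libraries.

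MHC class II molecules carry peptides from endosomes to the surface of dendritic cells, macrophages and B cells, where CD4+ T cells read them. The α and β chains are assembled on the invariant chain CD74, the protease cathepsin S trims CD74 down to the CLIP fragment, and H2-DM exchanges CLIP for peptide under restraint by H2-O. Transcription of nearly all of these genes depends on CIITA, a coactivator without DNA-binding ability of its own that is recruited by RFX, NF-Y and CREB factors bound at paired X and Y boxes, and interferon-γ induces CIITA in macrophages and in many tumor cells. In C57BL/6 mice the chains *H2-Aa* and *H2-Ab1* form I-A, whereas the Eα partner of *H2-Eb1* is defective in this strain.

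Of the 10 genes, 7 had an upstream sequence among the RefSeq promoters (GRCm38.p6) used here. The 250 bases before each start site were searched on both strands for AAC followed, after 24 to 27 bases of any kind, by GATTGG. The first letters lie in the X box and the last are the core of the Y box, so that this pattern contains any match to GATTGG alone that closes it. The pattern was set after these sequences had been read, so that its count among these genes is a description and not a test. Upstream of 5 of the 7 genes it was present (*H2-Aa*, *H2-Eb1*, *H2-DMb1*, *H2-DMb2* and *H2-Oa*), compared with 253 of 32851 promoters (0.77%), and GATTGG alone was found in 14.6% of promoters. The following windows, written 5′ to 3′ on the strand of the gene with the pattern in capitals, are shown because they hold the pattern.
*H2-Aa* (chr17:34287859-34287911, minus strand): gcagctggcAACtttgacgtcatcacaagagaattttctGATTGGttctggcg
*H2-Eb1* (chr17:34305769-34305820, plus strand): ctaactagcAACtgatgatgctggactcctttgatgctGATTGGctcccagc
*H2-DMb2* (chr17:34145119-34145171, plus strand): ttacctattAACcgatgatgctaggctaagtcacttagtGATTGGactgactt

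The matches to *H2-DMb1* and *H2-Oa* reach into transcribed sequence in the annotation and their letters are not printed. Neither of 2 promoters of *H2-DMa* nor the promoter of *Ctss* held the pattern. The *Ctss* window instead held GAAANNGAAA, the core of an interferon-stimulated response element, which was present in 2.98% of promoters and in none of the other 6 genes. Whether this match bears on the counts of *Ctss* was not tested. The window is shown, with the core in capitals, because none of the other genes searched held the core.
*Ctss* (chr3:95526756-95526782, plus strand): tctttaaatGAAAccGAAAtgaaagtt
*H2-Ab1*, *Cd74* and *Ciita* are named only. These matches describe letters, and binding was not measured.

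The 10 libraries held 8150556 to 12839174 counts. A level is given as counts per 1000000 counts of the library (CPM). Libraries were made from the 3′ ends of transcripts, so a count does not scale with gene length, but its yield can still differ between genes. A count of 3 or fewer was treated as the floor of detection (0.234 to 0.368 CPM, covering counting error only). *Ptgs1* and *Ptgs2* were lower in each *Ptgs*-/- library than in each *Ptgs*+/+ library. Lymphoid, myeloid and melanoma lineage markers were also examined, and *Tyr* and *Mlana* were at the floor in every library, which leaves the melanoma cells unmarked by these genes.

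Class II chains were about 3-fold higher in *Ptgs*-/- than in *Ptgs*+/+ tumors, and remained more than 2-fold higher in NK cell-depleted mice. *H2-Aa* (ENSMUSG00000036594, chr17:34282744-34287823 of GRCm38), the α chain of I-A, stood at 351, 294, 299 and 311 CPM in the *Ptgs*+/+ libraries, 731, 1103 and 1291 CPM in the *Ptgs*-/- libraries, and 768, 857 and 709 CPM in those of NK cell-depleted mice. The *Ptgs*+/+ libraries were tightly grouped and lay below all others, whereas the first *Ptgs*-/- library sat among those of NK cell-depleted mice. *H2-Ab1* (ENSMUSG00000073421, chr17:34257689-34269419), the β chain of I-A, stood at 288, 237, 269 and 268 CPM, then 607, 1042 and 1193 CPM, then 607, 756 and 661 CPM in the same order. *H2-Eb1* (ENSMUSG00000060586, chr17:34305867-34316674), the β chain of I-E, was measured at 322, 269.6, 323 and 309 CPM, then 649.9, 1078 and 1307 CPM, then 669, 752 and 682 CPM. Both β chains therefore showed the same order of groups as *H2-Aa*, with no overlap between *Ptgs*+/+ libraries and the rest.

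The log2 fold change of *H2-Aa* in *Ptgs*-/- against *Ptgs*+/+ tumors was 1.67 (SE 0.16, adjusted p = 8.61e-05, from the quasi-likelihood test of edgeR, adjusted over 14550 genes by the Benjamini-Hochberg method, as are the p-values called adjusted that follow). For *H2-Ab1* it was 1.77 (SE 0.18, adjusted p = 0.00013) and for *H2-Eb1* 1.67 (SE 0.18, adjusted p = 0.000164). In NK cell-depleted mice the difference from *Ptgs*+/+ tumors was 1.28 for *H2-Aa* (SE 0.16, adjusted p = 0.000408), 1.31 for *H2-Ab1* (SE 0.18, adjusted p = 0.000871) and 1.17 for *H2-Eb1* (SE 0.18, adjusted p = 0.00168). The 3 chains together took 0.08% to 0.0961% of all counts in *Ptgs*+/+ libraries, 0.199% to 0.379% in *Ptgs*-/- libraries and 0.204% to 0.237% in those of NK cell-depleted mice. Whether more cells carried these transcripts or each cell held more of them cannot be told apart in whole tumors.

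**Figure D1:**
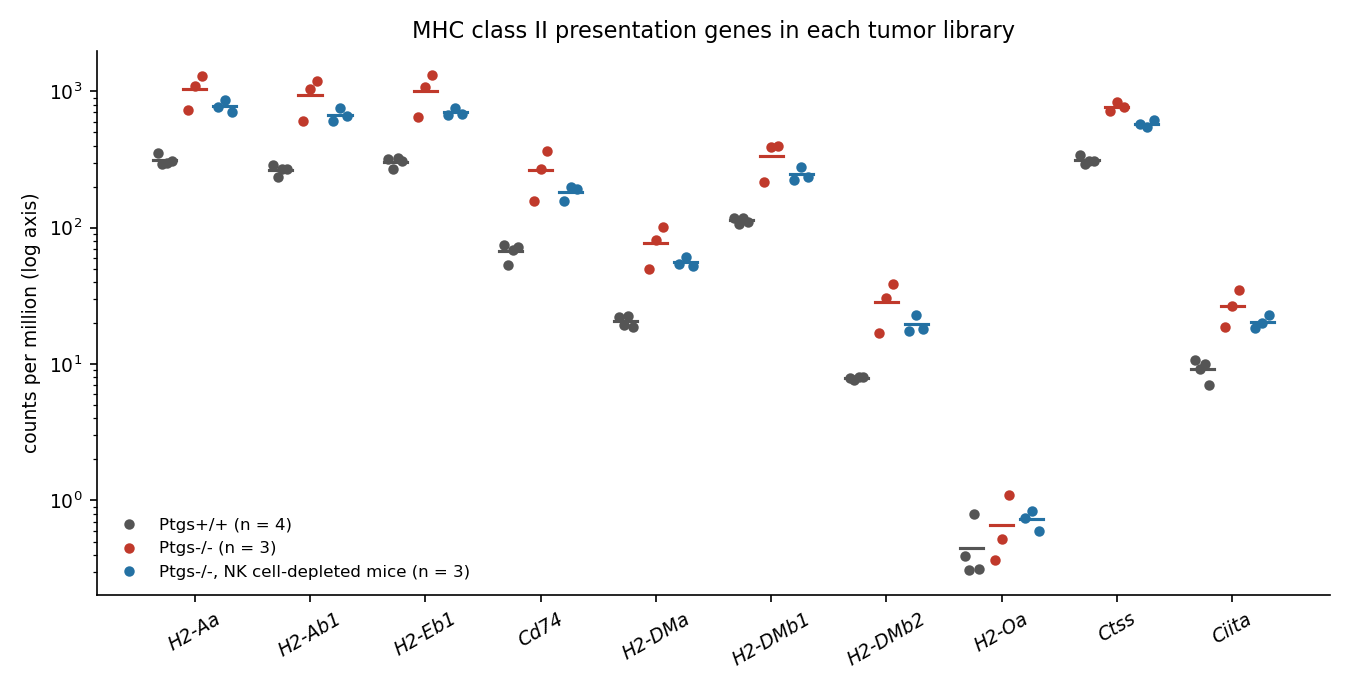
Level of each of the 10 genes in CPM on a log axis, 1 point per library and a bar at the group mean, for *Ptgs*+/+ tumors (grey, n = 4) and for *Ptgs*-/- tumors with NK cells (red, n = 3) or in NK cell-depleted mice (blue, n = 3). For every gene except *H2-Oa* the grey points lie below all red and blue points, and for 8 of these 9 genes the lowest red point is within or below the blue ones.

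The chaperones of class II loading moved with the chains. *Cd74* (ENSMUSG00000024610, chr18:60803848-60812652), the invariant chain, stood at 74.3, 53.4, 68.7 and 71.9 CPM in *Ptgs*+/+ libraries, 157, 272 and 362 CPM in *Ptgs*-/- libraries and 158, 198 and 192 CPM in those of NK cell-depleted mice. It had the highest fold change of the tested genes in both comparisons with *Ptgs*+/+ tumors, with a log2 value of 1.91 (SE 0.22, adjusted p = 0.000244) and, in NK cell-depleted mice, of 1.41 (SE 0.22, adjusted p = 0.00175). The intervals of the genes overlap, so that this order is a description. *H2-DMa* (ENSMUSG00000037649, chr17:34119541-34139101), the α chain of H2-DM, stood at 22.1, 19.4, 22.5 and 18.8 CPM, then 49.6, 81.6 and 101 CPM, then 53.8, 61.0 and 52.1 CPM. All *Ptgs*+/+ libraries were again below the others, with log2 fold changes of 1.84 (SE 0.19, adjusted p = 0.000132) and 1.39 (SE 0.19, adjusted p = 0.000797). The longest exon overlap of *H2-DMa* with another gene is 360 bases of *Brd2* on the opposite strand, and use of strand in counting is not stated, but *Brd2* itself had a log2 fold change of -0.20 (SE 0.21, adjusted p = 0.526) in *Ptgs*-/- tumors.

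*H2-DMb1* (ENSMUSG00000079547, chr17:34153072-34160230) and *H2-DMb2* (ENSMUSG00000037548, chr17:34143307-34151555) encode near-identical β chains of H2-DM, so the division of reads between them is uncertain. *H2-DMb1* stood at 118, 107, 119 and 111 CPM in *Ptgs*+/+ libraries, 217, 393 and 397 CPM in *Ptgs*-/- libraries and 223, 279 and 235 CPM in those of NK cell-depleted mice. *H2-DMb2* stood at 7.87, 7.63, 8.08 and 8.06 CPM, then 16.9, 30.3 and 38.8 CPM, then 17.5, 23.0 and 18.2 CPM. Neither gene had a *Ptgs*+/+ library that reached the lowest *Ptgs*-/- library. The log2 fold changes in *Ptgs*-/- tumors were 1.5 for *H2-DMb1* (SE 0.18, adjusted p = 0.00028) and 1.80 for *H2-DMb2* (SE 0.23, adjusted p = 0.000401). In NK cell-depleted mice they were 1.08 (SE 0.18, adjusted p = 0.00247) and 1.28 (SE 0.23, adjusted p = 0.00422). *H2-DMb1* had 13.7 to 15.0 counts for each count of *H2-DMb2* in *Ptgs*+/+ libraries, 10.2 to 13.0 in *Ptgs*-/- libraries and 12.2 to 13.0 in those of NK cell-depleted mice, so that the ranges of *Ptgs*+/+ and *Ptgs*-/- libraries did not overlap.

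*H2-Oa* (ENSMUSG00000024334, chr17:34092340-34095234), the α chain of the H2-DM inhibitor H2-O, was barely detected. The *Ptgs*+/+ libraries held 5, 3, 9 and 3 of its counts, the *Ptgs*-/- libraries 3, 5 and 12, and those of NK cell-depleted mice 7, 9 and 6. The groups overlapped, and an exon of an antisense gene, *BC051537*, covers part of it. Without a filter on low counts its log2 fold change was 0.52 (SE 0.56, adjusted p = 0.635) in *Ptgs*-/- against *Ptgs*+/+ tumors and 0.65 (SE 0.55, adjusted p = 0.629) in NK cell-depleted mice, so that no difference was detectable at this depth. Its β partner *H2-Ob* passed the filter and is described with the other genes of the pathway.

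*Ctss* (ENSMUSG00000038642, chr3:95526786-95556403), which encodes cathepsin S, rose least in *Ptgs*-/- tumors but with the least spread. It stood at 343, 293, 307 and 311 CPM in *Ptgs*+/+ libraries, 718, 834 and 769 CPM in *Ptgs*-/- libraries and 572, 549.9 and 613 CPM in those of NK cell-depleted mice. No groups overlapped, and it was the only member for which all *Ptgs*-/- libraries lay above all libraries of NK cell-depleted mice. The same separation was found for 10.4% of all genes tested, so it does not by itself set *Ctss* apart from genes at large. The log2 fold change was 1.24 (SE 0.09, adjusted p = 1.83e-05) in *Ptgs*-/- tumors and 0.85 (SE 0.09, adjusted p = 0.000156) with NK cells depleted, both against *Ptgs*+/+ tumors. For every 100 counts of *H2-Aa* there were 97.96 to 102.5 counts of *Ctss* in *Ptgs*+/+ libraries, 59.5 to 98.3 in *Ptgs*-/- libraries and 64.2 to 86.4 in NK cell-depleted mice. By contrast, *H2-Ab1* ranged from 79.0 to 94.5 and *H2-Eb1* from 87.1 to 107.9 counts per 100 of *H2-Aa* across all 10 libraries.

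*Ciita* (ENSMUSG00000022504, chr16:10480059-10528418), the coactivator of the class II promoters, was present at a low level and rose in the same direction. It stood at 10.7, 9.28, 10.0 and 7.01 CPM in *Ptgs*+/+ libraries, 18.6, 26.8 and 35.0 CPM in *Ptgs*-/- libraries and 18.5, 20.0 and 22.7 CPM in those of NK cell-depleted mice. Each *Ptgs*-/- library, with or without NK cells, was above each *Ptgs*+/+ library. The log2 fold changes were 1.47 (SE 0.21, adjusted p = 0.000673) and 1.10 (SE 0.21, adjusted p = 0.00549). *Ciita* shares 127 exonic bases with *Dexi* on the opposite strand.

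Counted together, all 9 tested members passed in *Ptgs*-/- against *Ptgs*+/+ tumors, all of them higher, where 12.1% of all genes tested passed as higher and 11% as lower. Their median log2 fold change was 1.67, against -0.01 over all genes. The study's stricter rule, which also requires the log2 fold change to reach 1.5 in size, was met by 7 of the 9, and by 3.14% of all genes as higher. Groups of libraries did not overlap for 9 of 9, and 18.1% of all genes were higher without overlap. *Ciita* and *Ctss* were the members that missed the stricter rule.

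When NK cell-depleted mice carried the *Ptgs*-/- tumors, 9 of 9 genes passed as higher than in *Ptgs*+/+ tumors, compared with 6.63% of all genes higher and 5.87% lower. The median log2 fold change was 1.28, against -0.01 over all genes. None of the 9 reached the log2 fold change of 1.5 in this comparison (2.01% of all genes did so as higher). For all 9 the libraries did not overlap, as for 15.1% of all genes in this direction. Both comparisons use the same 4 *Ptgs*+/+ libraries, so they are not independent of each other.

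**Figure D2:**
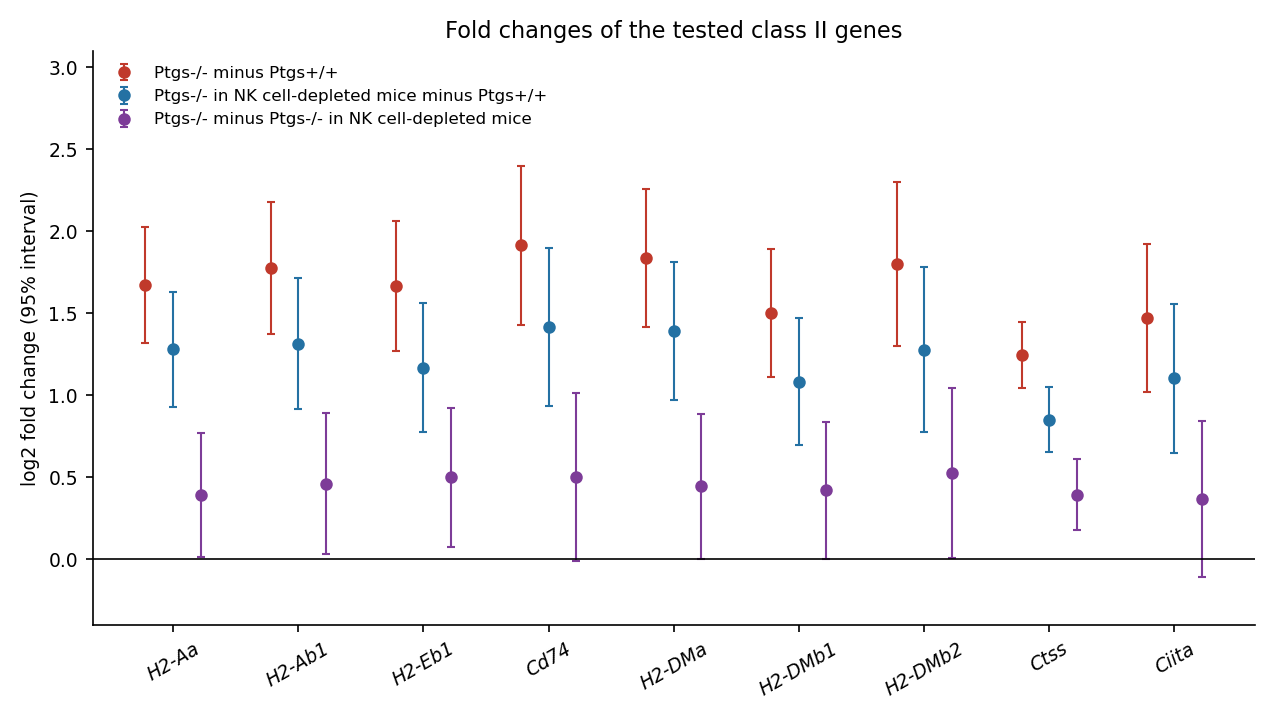
Log2 fold change of the 9 tested genes with 95% intervals from the model of all 10 libraries, for *Ptgs*-/- minus *Ptgs*+/+ (red), *Ptgs*-/- in NK cell-depleted mice minus *Ptgs*+/+ (blue) and *Ptgs*-/- minus *Ptgs*-/- in NK cell-depleted mice (purple). Red values lie between 1.24 and 1.91, blue values between 0.85 and 1.41, and purple values between 0.37 and 0.52.

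The comparison of *Ptgs*-/- tumors with and without NK cells asks how much of the class II level goes with the presence of NK cells. All 9 estimates were above 0, from 0.37 for *Ciita* to 0.52 for *H2-DMb2* on the log2 scale, with a median of 0.44 against -0.01 over all genes. None passed after adjustment (edgeR), and 7 of the 9 had an unadjusted p under 0.05. The share of all genes with such an unadjusted p was not counted. Most of these genes also varied together between libraries, so the 7 are not separate results. Few genes passed here at all, with 0.515% of those tested higher and 0.921% lower with NK cells present, 0.323% higher by the stricter rule, and 10.4% higher without overlap of the libraries. *Ctss* came nearest, with a log2 difference of 0.39 (95% interval 0.18 to 0.61, adjusted p = 0.0917), and passed in DESeq2 (adjusted p = 0.00296). For *H2-Aa* the difference was 0.39 (95% interval 0.01 to 0.77, adjusted p = 0.427), for *Cd74* 0.50 (-0.01 to 1.01, adjusted p = 0.464) and for *Ciita* 0.37 (-0.11 to 0.84, adjusted p = 0.588). For *H2-Aa*, *Cd74* and *Ciita* the intervals reach from about no difference to between 0.77 and 1.01, where 1 is a doubling. The size of these differences is therefore poorly bounded. The interval of *Ctss* was narrower, and none of the intervals is adjusted for the number of genes.

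This comparison turned on single libraries. The first *Ptgs*-/- library was lower than all 3 libraries of NK cell-depleted mice for 5 of the 9 genes (*H2-Eb1*, *Cd74*, *H2-DMa*, *H2-DMb1* and *H2-DMb2*) and above all 3 for *Ctss* alone. The other *Ptgs*-/- libraries were above all 3 for 9 of 9. Without the first library, 7 of the 9 genes passed, with *Ciita* and *Ctss* the exceptions, and the median difference was 0.67. In that fit 411 genes passed in all, against 209 with every library kept. The third *Ptgs*-/- library, the highest for 8 of the 9 genes, carries the code EB042 in its label, where the first and second and all of the NK cell-depleted group carry EB046, and the labels do not say what these codes stand for. Within EB046 the median difference was 0.28, with 0 of 9 members and 93 genes in all passing. With the code as a term in the model the median difference was 0.37.

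**Figure D3:**
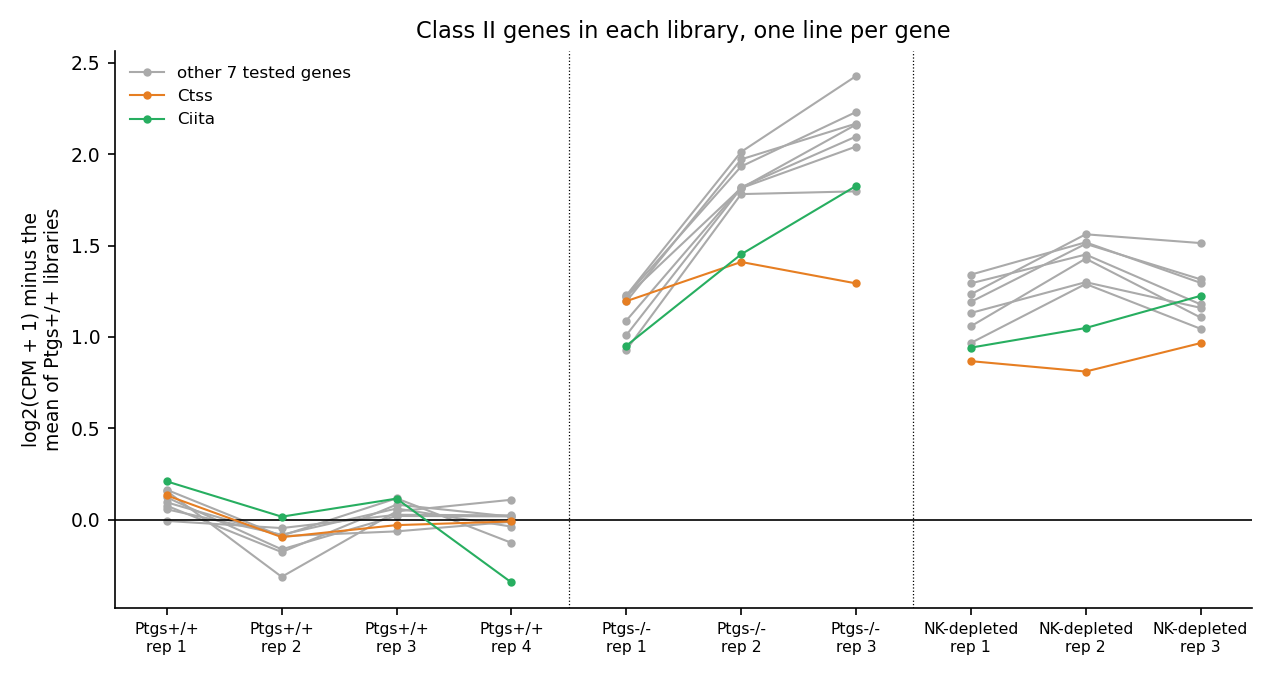
Level of the 9 tested genes in each library as log2(CPM + 1) minus the mean of the *Ptgs*+/+ libraries, with 1 line per gene broken between groups. The first *Ptgs*-/- library has a median of 1.19, the second 1.81 and the third 2.10, and those of NK cell-depleted mice have medians of 1.13, 1.43 and 1.18. *Ctss* (orange) varies less than the other genes among *Ptgs*-/- libraries.

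Class II genes differed together between libraries of the same group, mainly among the 3 *Ptgs*-/- libraries. Relative to the *Ptgs*+/+ mean, median log2 levels were 1.19, 1.81 and 2.10 in those 3 libraries. They were -0.09 to 0.12 in *Ptgs*+/+ libraries and 1.13 to 1.43 in NK cell-depleted mice. The correlations that follow therefore rest mainly on the *Ptgs*-/- libraries. After subtraction of the group means, the levels of the 7 genes other than *Ctss* and *Ciita* had pairwise Pearson correlations of 0.89 to 0.98 over the 10 libraries. *Ciita* correlated with these 7 at 0.73 to 0.85 and *Ctss* at 0.28 to 0.52. These are descriptions over libraries that share depth and cell makeup across all genes.

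Genes of several leukocytes moved with the class II genes, and their part in the class II differences was not tested. Against *Ptgs*+/+ tumors, 12.1% of all genes tested passed as higher in *Ptgs*-/- tumors and 6.63% with NK cells depleted. In *Ptgs*-/- against *Ptgs*+/+ tumors, 7 of 8 markers of type 1 dendritic cells passed as higher (median log2 fold change 1.56), as did 3 of 4 tested markers of type 2 dendritic cells (1.81), 7 of 8 markers of macrophages (0.92), and 4 of 4 genes of leukocytes in general (0.91). Of the 3 genes shared by dendritic cells (*Flt3*, *Zbtb46* and *Itgax*) only *Itgax* passed. The summed level of the type 1 list was 133.6 to 155 CPM in *Ptgs*+/+ libraries, 337 to 435 CPM in *Ptgs*-/- libraries and 261 to 314 CPM in NK cell-depleted mice. That of the macrophage list was 1670 to 1997 CPM, 2737 to 4271 CPM and 2495 to 2840 CPM. The first *Ptgs*-/- library was the lowest of its group for both lists, as it was for the class II genes. Against *Ptgs*+/+ tumors, 6 of 8 type 1 dendritic cell genes, 3 of 4 type 2 genes and 3 of 8 macrophage genes passed as higher with NK cells depleted. Between *Ptgs*-/- tumors with and without NK cells, 0 of 8 type 1 dendritic cell genes and 0 of 8 macrophage genes passed in edgeR, with 3 and 5 at an unadjusted p under 0.05 and 1 of each in DESeq2. Single genes of other leukocyte lists did pass in edgeR as higher with NK cells. *Ptprc*, the leukocyte surface phosphatase CD45, was at 0.82 (adjusted p = 0.038, 1 of 4 leukocyte genes). *Ly6c2*, a surface protein of inflammatory monocytes, was at 1.16 (adjusted p = 0.0378, 1 of 5 monocyte genes). *Ccl22*, a chemokine of mature dendritic cells, was at 1.36 (adjusted p = 0.0456, 1 of 5 genes of these cells). In the same order, 3, 1 and 3 genes of these lists had an unadjusted p under 0.05, and 1, 1 and 3 passed in DESeq2. The mature dendritic cell list had a median log2 difference of 1.11. None passed in edgeR among the tested genes of type 2 dendritic cells, dendritic cells of any type, T cells, or Langerhans cells and keratinocytes (1 of each list at an unadjusted p under 0.05 and 0 in DESeq2), nor among those of B cells and melanoma cells (0 by either).

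B cell genes were low. *Cd79a* had at most 2 counts in any library, whereas *Cd22* had 13 to 64 counts and *Cd79b* 9 to 43 counts per library. The summed level of 8 B cell genes was 2.93 to 4.44 CPM in *Ptgs*+/+ libraries, 7.24 to 9.57 CPM in *Ptgs*-/- libraries and 5.56 to 22.6 CPM in NK cell-depleted mice. T cell genes summed to 2.57 to 3.66 CPM, 6.38 to 21.3 CPM and 5.36 to 8.67 CPM. Of 5 tested neutrophil genes, *S100a8*, *S100a9* and *Cxcr2* fell in *Ptgs*-/- against *Ptgs*+/+ tumors (log2 fold changes of -2.64, -2.70 and -2.32), while *Csf3r* was at 0.61 (adjusted p = 0.123) and *Retnlg* at 0.28 (adjusted p = 0.668). In NK cell-depleted mice the same 3 genes were lower than in *Ptgs*+/+ tumors and *Retnlg* was higher (1.77, adjusted p = 0.0139). The remaining lists were counted in *Ptgs*-/- against *Ptgs*+/+ tumors, where 12.1% of all genes tested passed as higher and 11% as lower. Passing as higher were 3 of 5 mature dendritic cell genes, 3 of 4 plasmacytoid dendritic cell genes and 1 of 5 skeletal muscle genes. So were 3 of 5 monocyte genes, 3 of 4 tested T cell genes, all 5 NK cell genes and both tested B cell genes. By contrast, 1 monocyte gene and 1 of 4 tested genes of Langerhans cells and keratinocytes passed as lower. Of 2 tested melanoma genes 0 passed in edgeR (0 also at an unadjusted p under 0.05 and in DESeq2). Between *Ptgs*-/- tumors with and without NK cells, all 5 NK cell genes passed as higher and all 5 skeletal muscle genes as lower, as did *S100a8* (-1.26), *S100a9* (-1.14) and, from the plasmacytoid list, *Cox6a2* (-2.57), which skeletal muscle also expresses. The muscle genes summed to 90.3 to 323 CPM in *Ptgs*-/- libraries and 2027 to 4779 CPM in those of NK cell-depleted mice, and the part of this tissue in the class II values was not tested.

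Counts of the class II chains were set against these marker sums within each library. For each CPM of the leukocyte genes there were 1.35 to 1.44 CPM of the 3 chains in *Ptgs*+/+ libraries, 2.18 to 3.18 in *Ptgs*-/- libraries and 2.34 to 2.55 in NK cell-depleted mice. For each CPM of the macrophage genes the values were 0.446 to 0.517, 0.726 to 1.15 and 0.751 to 0.833. In both cases the *Ptgs*+/+ libraries were below all others. Against the type 1 dendritic cell genes the ranges were 5.73 to 6.57, 5.90 to 8.71 and 6.53 to 7.95, and against the type 2 genes 2.66 to 4.403, 2.99 to 4.84 and 2.70 to 4.13, so that these groups overlapped. Single genes weigh heavily in these sums. In *Ptgs*-/- libraries *Clec10a* gave 402, 834 and 607 CPM of type 2 sums of 510, 1078 and 784 CPM. *Irf8* gave 127, 194 and 212 CPM of type 1 sums of 337, 435 and 435 CPM. Against the 3 genes shared by dendritic cells the ranges were 12.1 to 16.4, 26.02 to 32.15 and 32.83 to 38.51, and no groups overlapped, so that the comparison depends on which dendritic cell genes are used. Marker genes may themselves change within a cell, so that the ratios are not counts of transcripts per cell.

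**Figure D4:**
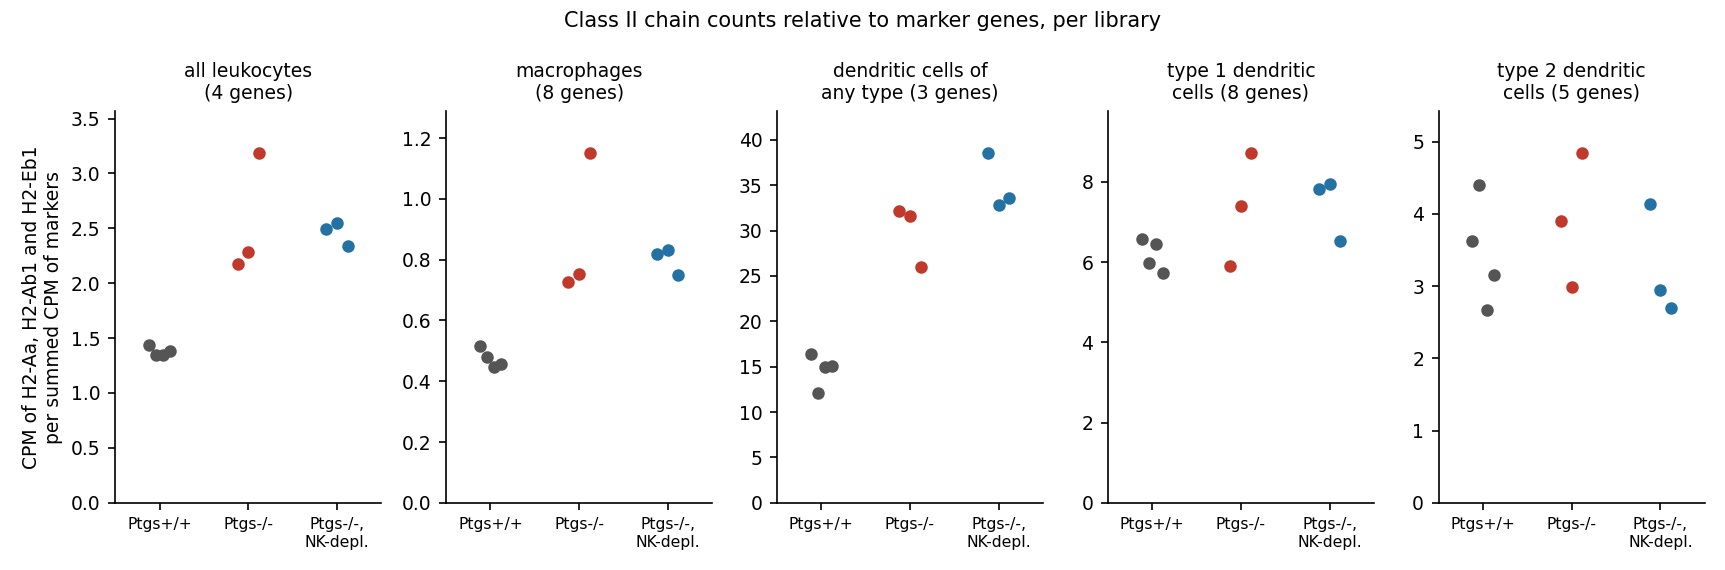
Summed CPM of *H2-Aa*, *H2-Ab1* and *H2-Eb1* divided by the summed CPM of marker genes, 1 point per library, with each vertical axis starting at 0. Relative to genes of all leukocytes, of macrophages and of dendritic cells of any type, the *Ptgs*+/+ libraries (grey) lie below all others, and relative to type 1 and type 2 dendritic cell genes the 3 groups overlap.

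Other genes of the pathway were counted from a list of 31, of which 28 were tested. In *Ptgs*-/- against *Ptgs*+/+ tumors 14 passed as higher and 0 as lower, with a median log2 fold change of 0.41. Of all genes tested, 12.1% passed as higher and 11% as lower there. With NK cells depleted, 6 passed as higher and 1 as lower against *Ptgs*+/+ tumors (median 0.27), beside 6.63% and 5.87% of all genes. Between *Ptgs*-/- tumors with and without NK cells 1 passed as higher and 0 as lower, or 2 in DESeq2.

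Among the inputs to *Ciita*, 4 of 7 tested genes rose in *Ptgs*-/- tumors. *Irf1*, an interferon-induced transcription factor that acts on a *Ciita* promoter, stood at 138, 159, 155 and 159 CPM in *Ptgs*+/+ libraries, 245, 286 and 300.0 CPM in *Ptgs*-/- libraries and 186, 192 and 201 CPM in NK cell-depleted mice, and no groups overlapped. Its log2 fold change in *Ptgs*-/- tumors was 0.80 (SE 0.09, adjusted p = 0.00026). *Irf1* was the gene of the pathway that passed between *Ptgs*-/- tumors with and without NK cells, with a log2 difference of 0.50 (SE 0.10, adjusted p = 0.0341). This difference of *Irf1* was close in size to the differences of 0.37 to 0.52 of the class II genes that did not pass. *Irf2* and *Jak1* rose by less in *Ptgs*-/- tumors (0.53 and 0.37). *Ifng* had 0, 0, 0 and 2 counts in *Ptgs*+/+ libraries, 3, 4 and 7 counts in *Ptgs*-/- libraries and 1, 0 and 0 counts in NK cell-depleted mice, which was too few to test.

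The factors that bind the X and Y boxes did not pass in any of the 3 comparisons. These are *Rfx5*, *Rfxap*, *Rfxank*, *Nfya*, *Nfyb*, *Nfyc* and *Creb1*, and against *Ptgs*+/+ tumors their median was -0.12 on the log2 scale in *Ptgs*-/- tumors and -0.08 when NK cells were depleted. In the first of these comparisons *Nfyb* was at -0.32 (SE 0.11, adjusted p = 0.0594) and *Rfx5* at 0.42 (SE 0.45, adjusted p = 0.539). By edgeR's unadjusted p, 1 of the 7 was under 0.05 in each comparison with *Ptgs*+/+ tumors and 0 between *Ptgs*-/- tumors with and without NK cells, and in DESeq2 the adjusted counts were 0, 1 and 0 for *Ptgs*-/- tumors, for NK cell-depleted mice and for the comparison between them.

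Endosomal enzymes and costimulatory genes rose as well. Of 8 enzymes, 5 rose in *Ptgs*-/- tumors, namely the proteases *Ctsh* (0.92), *Ctsb* (0.60) and *Ctsz* (0.54), the intramembrane protease *Sppl2a* (0.57), which removes what remains of CD74, and the thiol reductase *Ifi30* (0.54), all as log2 fold changes. *Ctsl*, *Ctsd* and *Lgmn* did not pass. In NK cell-depleted mice against *Ptgs*+/+ tumors *Ctsb* (0.59) and *Ctsz* (0.48) passed. The ligase *March1*, which tags class II molecules for removal from the surface, rose by 1.01 in *Ptgs*-/- tumors (SE 0.19, adjusted p = 0.00294). All 3 costimulatory genes rose in *Ptgs*-/- tumors, *Cd40* by 1.56, *Cd80* by 0.98 and *Cd86* by 0.93.

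*Cd40* stood at 13.8, 11.8, 11.8 and 13.4 CPM in *Ptgs*+/+ libraries, 30.1, 50.1 and 36.9 CPM in *Ptgs*-/- libraries and 20.3, 27.5 and 31.6 CPM in NK cell-depleted mice. The *Ptgs*+/+ libraries were below the rest, and the other groups overlapped. The kinase *Jak2* was the gene that passed as lower in NK cell-depleted mice, with a log2 fold change of -0.32 (SE 0.09, adjusted p = 0.044).

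Of the other class II chains, *H2-Ob*, the β chain of H2-O, had 13, 22, 19 and 17 counts in *Ptgs*+/+ libraries, 30, 37 and 54 counts in *Ptgs*-/- libraries and 66, 54 and 47 counts in NK cell-depleted mice. Scaled to depth, its libraries in both *Ptgs*-/- groups were above all *Ptgs*+/+ libraries. Its log2 fold change was 1.26 in *Ptgs*-/- tumors (SE 0.28, adjusted p = 0.00892) and 1.70 in NK cell-depleted mice (SE 0.28, adjusted p = 0.00243). The difference with against without NK cells was thus -0.45 (95% interval -1.07 to 0.17, adjusted p = 0.617), with a sign opposite to that of the 9 members. H2-O is made mainly by B cells, whose genes summed to 7.24, 8.69 and 9.57 CPM in *Ptgs*-/- libraries and 22.6, 6.92 and 5.56 CPM in NK cell-depleted mice, and their part in the *H2-Ob* values was not tested. *H2-Eb2* had 3 to 10 counts per library and the Eα pseudogene *H2-Ea-ps* at most 1.

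The class II genes on chromosome 17 lie within 224 kb together with genes of the class I pathway. Between the start of *H2-Oa* and the end of *H2-Eb1* the annotation lists 17 genes, 7 of them members, and 6 of the other 10 were tested. Of these 6, 4 passed as higher in *Ptgs*-/- tumors and none as lower, where 12.1% of all genes tested passed as higher. *H2-Ob*, the class II chain described above, was among these 4 (1.26) and also passed in NK cell-depleted mice (1.70). *Psmb9* and *Psmb8*, catalytic subunits of the immunoproteasome, had log2 fold changes of 1.69 and 1.41, and *Tap1*, a subunit of the peptide transporter of class I loading, of 1.62. *Tap2*, its partner, was at 0.72 (SE 0.58, adjusted p = 0.411), and *Brd2*, a chromatin reader inside the same interval, did not pass. In NK cell-depleted mice against *Ptgs*+/+ tumors *Psmb9* was at 1.14, *Psmb8* at 0.91 and *Tap1* at 0.72, each passing. None of the 6 passed in edgeR between *Ptgs*-/- tumors with and without NK cells (2 at an unadjusted p under 0.05), and in DESeq2 *Tap1* alone passed.

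**Figure D5:**
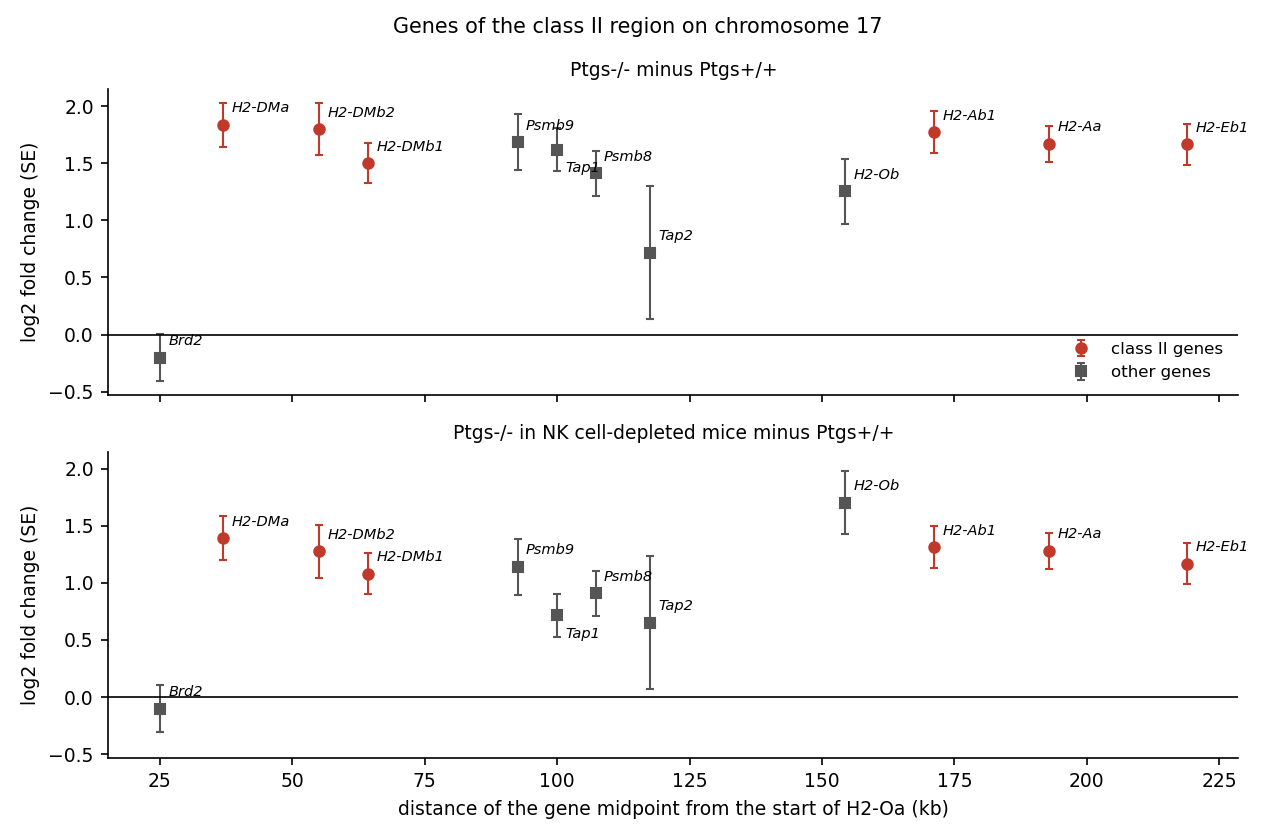
Log2 fold change with standard error of the 12 tested genes between *H2-Oa* and *H2-Eb1* against the distance of the gene midpoint from the start of *H2-Oa* in kb. In *Ptgs*-/- minus *Ptgs*+/+ tumors the 6 tested members (red, labelled class II genes) lie between 1.5 and 1.84 and *Brd2* at -0.20. In NK cell-depleted mice these members lie between 1.08 and 1.39. *H2-Ob*, also a class II chain, is drawn with the other genes, at 1.26 and 1.70 in the same order.

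The genes whose pattern was most like that of the members were sought among 10730 other genes with a mean of at least 5 CPM, by the Pearson correlation of log2(CPM + 1) with the mean standardized level of the 9 tested genes over 10 libraries. The 8 highest were *Batf3* (0.99), *Lair1*, *Rassf4* and *Rnase6* (each 0.987), *Nckap1l* and *Cd52* (each 0.986), *Adgre5* (0.985) and *Slamf8* (0.984). *Batf3*, a transcription factor required for type 1 dendritic cells, stood at 8.96, 4.85, 7.37 and 7.11 CPM in *Ptgs*+/+ libraries, 33.7, 54.5 and 62.3 CPM in *Ptgs*-/- libraries and 23.8, 35.6 and 30.7 CPM in NK cell-depleted mice. Its libraries divided as those of the class II genes did, with the first *Ptgs*-/- library inside the range of NK cell-depleted mice. A difference between groups alone raises such a correlation, so it was also taken on residuals from the group means. The 8 highest were then *Dennd1c* (0.985), *Tyrobp* (0.976), *Irf8* (0.956), *Cbfa2t3* and *Adora2a* (each 0.955), *Thsd1* (0.953), *Cyp4f18* (0.947) and *Itga4* (0.946), and no gene was in both sets. Residuals rank likeness within groups only. Without the subtraction *Thsd1* was at -0.293, and the others at 0.786 (*Adora2a*) to 0.984 (*Cyp4f18*). *Thsd1* varied mainly among *Ptgs*-/- libraries (4.29, 11.6 and 13.1 CPM). It stood at 12.2 to 14.5 CPM in *Ptgs*+/+ libraries and 9.96 to 10.4 CPM in NK cell-depleted mice. On the scale of residuals *H2-Ab1* was at 0.989 and *Ctss* at 0.551, although both entered the mean.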

How the data were processed

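The authors prepared 3′ end libraries from 500 ng of total RNA (QuantSeq FWD), trimmed the reads (BBDUK, fqtrim, cutadapt) and used STAR for alignment on GRCm38 and featureCounts for the number of reads per gene. Values are raw counts as deposited by the authors, whole numbers with neither normalization nor pooling. The use of strand in counting is not given in the sources used here. Groups came from the labels. GENCODE release M21 on GRCm38 gave names and coordinates to 45143 of the 45706 genes.

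Differences were tested with edgeR 4.0.16 in R 4.3.3 (filterByExpr, TMM factors of 0.963 to 1.04, quasi-likelihood test), with all 10 libraries in 1 model of 3 groups. A gene passed at a Benjamini-Hochberg adjusted p of 0.05 or less. The members and lists were chosen with earlier results of these data known. Named genes are the 10 members, pathway genes that passed in any comparison, the 8 genes most like the members by each of 2 correlations, neighbours on chromosome 17, and marker lists in whole. Some others are named where a count required it. A few genes of these lists are not reported here. Alternatives were DESeq2 1.42.0, other filters, scaling and tests, the EB code in the labels, a replicate block and leaving out each library. In a test on simulated data made for *Ptgs*-/- against *Ptgs*+/+ tumors, with 14337 genes, 197 of 199 genes changed by a log2 fold of 2 were recovered and 6 unchanged genes were called. Every simulated gene had the same spread, and genes of low count were left unchanged. The change was larger than any estimated for the members, so the test does not show how well smaller changes are recovered.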

Additional observations from a re-analysis of the deposited data

Results flagged for a closer look

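Among the 4 *Ptgs*+/+ libraries, 4 of 38 genes examined (the members and tested pathway genes) had a library that stood apart from the rest by more than Dixon's 95% critical value for the gap over the range, where chance gives about 1 in 20. *H2-Oa* stood at 0.7901 CPM in replicate 3 (9 counts) and at 0.309 to 0.389 CPM in the others. *Nfyc* stood at 14.33 CPM in replicate 2 and at 10.2 to 10.88 CPM in the others. *Ctsd* stood at 1357 CPM in replicate 3 and at 979 to 1018 CPM in the others. *Cd80* stood at 5.004 CPM in replicate 3 and at 14.5 to 15.8 CPM in the others.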

How the results depend on the processing

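In the comparisons with *Ptgs*+/+ tumors all 9 tested members passed and were higher under each of the 19 alternatives that refit the model, with log2 fold changes of 1.16 to 2.17 in *Ptgs*-/- tumors and of 0.82 to 1.51 in NK cell-depleted mice. Under the study's log2 threshold of 1.5, 0 of the 9 members passed in the second comparison. Between *Ptgs*-/- tumors with and without NK cells, 0 members passed in edgeR, 1 (*Ctss*) in DESeq2, and 0 to 7 when libraries were left out in turn, the 7 without *Ptgs*-/- replicate 1, while all 171 estimates stayed above 0 (0.17 to 0.78). Over all genes the counts moved more. For *Ptgs*-/- against *Ptgs*+/+ tumors, 3360 genes passed, 604 with the log2 threshold, 2222 within code EB046 and 2062 (without *Ptgs*-/- replicate 2) to 3881 (without *Ptgs*+/+ replicate 3) with 1 library left out. For *Ptgs*-/- tumors with against without NK cells, 209 genes passed, 383 in DESeq2, 408 with no filter, 42 with at least 10 counts in every library, 403 in the likelihood ratio test, 93 within EB046 and 106 (without *Ptgs*-/- replicate 2) to 411 (without *Ptgs*-/- replicate 1) with 1 left out. Against *Ptgs*+/+ tumors, 1818 genes passed in NK cell-depleted mice, 395 with the log2 threshold and 909 (without the third library of NK cell-depleted mice) to 2116 (without *Ptgs*+/+ replicate 3) with 1 left out. The cause of these shifts was not tested, except that a threshold lowers counts by construction. With the label number as a replicate block, 3237, 195 and 1769 genes and 9, 0 and 9 members passed in the same order. Deviations of 11 same-numbered pairs correlated at -0.30 to 0.39 and 4 exceeded 0.1. Those of 22 differently numbered pairs correlated at -0.465 to 0.19 and 8 exceeded 0.1. With so few libraries in a group, these values cannot decide whether the numbers pair the samples. Depth limited *H2-Oa* and *Ifng*, which stayed near the floor.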
